A study of Mus musculus with 6 samples.

Results

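The genes described here are 45 genes of fatty acid oxidation and of the peroxisome, picked by gene symbol from a fixed list out of the 17784 genes in the expression table. All 45 had a row, and 40 of them passed the filter on low counts and were tested. Fatty acids are activated to acyl-CoA by acyl-CoA synthetases and enter mitochondria as carnitine esters, where they are shortened by successive cycles of dehydrogenation, hydration, another dehydrogenation and thiolytic cleavage. Peroxisomes run a parallel cycle that starts with an oxidase and handles very long and branched chains, and the shortened products can then pass to mitochondria. The nuclear receptors of the PPAR family bind fatty acids and drive transcription of many of these enzymes, and the corneal epithelium is a stratified tissue that is renewed throughout life.

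RNA-seq was performed on corneal epithelial cells in 3 samples from *Prrx1-CreERT;Ptch1* f/f mice, titled KO and called *Ptch1*-ablated here, and in 3 control samples, titled WT. The labels call the latter control mice and do not give their genotype. Both groups received 3 doses of tamoxifen, which switches on the CreERT recombinase, and the labels give an age of 10 weeks and a period of 2 months. *Prrx1-CreERT* was used to direct the deletion to keratocytes, and it is also active in the corneal endothelium and other mesenchymal cells of the eye. Recombination in the epithelium sequenced here was not tested. The samples were biological replicates per the study's methods, and the epithelium was lifted off with EDTA per the labels.

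Each sample held between 20296700 and 20625800 expected counts, RSEM's estimate of the reads of each gene. The label of corneal epithelium was borne out by *Krt12*, the keratin that defines this tissue, at 37107 to 49487 TPM (a level scaled for gene length and depth) over the 6 samples. *Kera*, the keratocyte proteoglycan, had at most 1 expected count in any sample, and *Ptprc*, the pan-leukocyte marker, had 1 to 9. *Ptch1* had 7.31, 9.70 and 10.2 TPM in the control samples and 5.28, 6.33 and 7.01 TPM in the *Ptch1*-ablated samples, and its call as lower was kept in 1 of 6 fits that left out 1 sample. *Ptch1*-ablated replicate 1 stood apart from the others, at 51.7 on the first principal component of all genes against 18.3 and 19.1 for replicates 2 and 3. Its summed TPM of 13 immune markers was 663 against 129 to 183 in the other 5 samples, and that of 6 conjunctival markers with a value was 4745 against 1408 to 2937. *Ptprc*, 1 of the 13 immune markers, had 1 expected count in this replicate. Of the 13, 4 were tested and 0 were called, but a test between groups is not a test of an excess in 1 replicate. The 5 adipocyte markers with a value summed to 0.06 to 0.74 TPM in control and 1.36 to 18.8 TPM in *Ptch1*-ablated samples, highest in replicate 1, where *Fabp4*, a fatty acid carrier, made up 18.6 TPM, and *Adipoq* had at most 3 counts. The 7 meibomian and sebaceous markers with a value summed to 5.40 to 6.85 TPM in control and 7.88 to 12.5 TPM in *Ptch1*-ablated samples, without overlap. Control replicate 3 held the highest sum of 11 stromal markers, 35.6 TPM against 2.00 to 7.74. A set of 20 immediate early genes, whose transcripts appear soon after a stimulus, summed to 1632 to 1999 TPM in control and 3759 to 4383 TPM in *Ptch1*-ablated samples, with 14 of the 20 called higher. The part of these markers in the results that follow was not tested.

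Most of the pathway was well expressed in the epithelium. In control samples 35 of the 45 genes had a mean of at least 10 TPM and 9 had at least 100 TPM, and the median gene of the list stood at 28.5 TPM where the median of all listed genes was 8.38 TPM. *Acsl1*, the synthetase that activates long-chain fatty acids in many tissues, was the highest at 298 ± 11.4 TPM (SD, n = 3), followed by *Acadm*, the medium-chain acyl-CoA dehydrogenase, at 173 ± 6.0 TPM (SD, n = 3). The next levels in order were those of *Acsl5* (123 ± 11.7 TPM, SD, n = 3) and *Etfb* (122 ± 0.895 TPM, SD, n = 3), whose control samples overlapped. *Abcd3*, a transporter of the peroxisomal membrane, was the highest peroxisomal gene among the 45 at 112 ± 3.40 TPM (SD, n = 3). *Hadh*, *Hadha*, *Echs1*, *Acaa2* and *Etfa*, all of the mitochondrial matrix cycle or its electron acceptor, lay between 91.0 and 106 TPM.

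**Figure D1:**
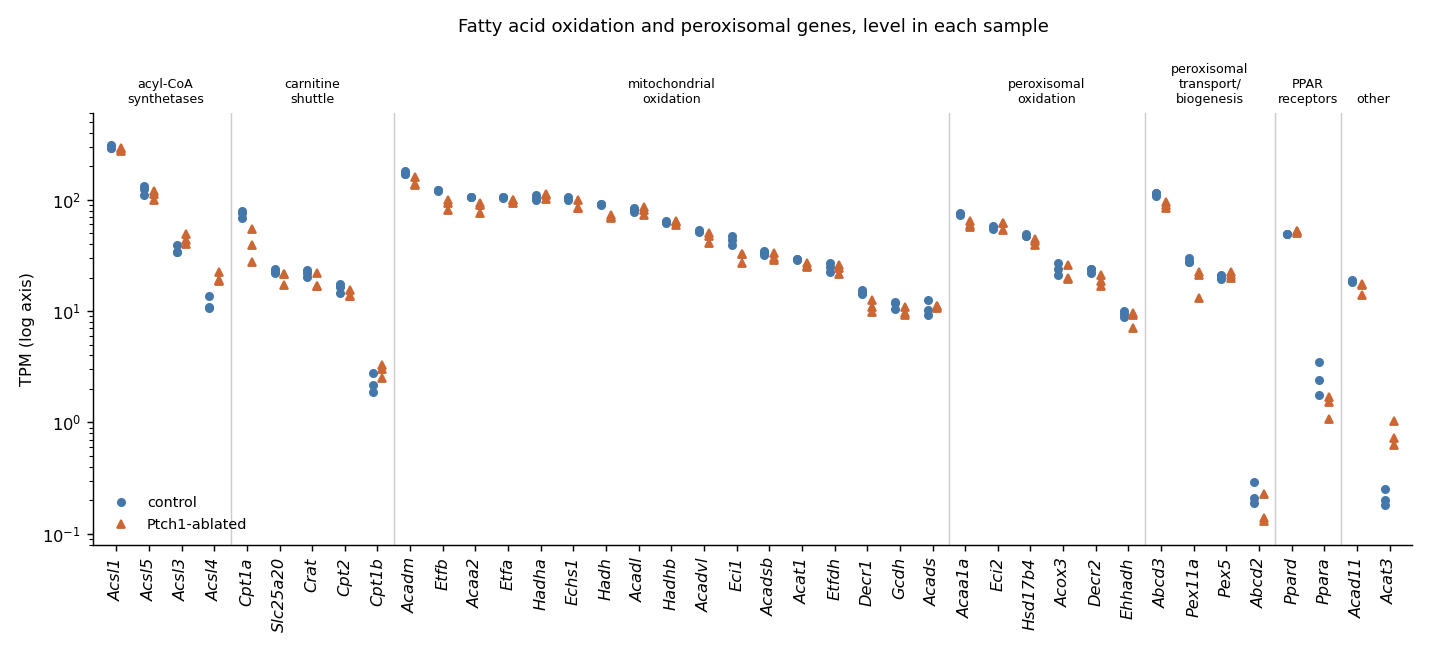
Level of the 40 tested genes in each sample, in TPM on a log axis, with control samples as circles and *Ptch1*-ablated samples as triangles, grouped by role and ordered by control mean. *Acsl1* is highest in both groups and *Abcd2* and *Acat3* lie at or below 1.04 TPM.

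At the bottom of the range, 5 genes did not pass the filter and were not tested. *Pparg*, the adipocyte PPAR, had 0 expected counts in 5 samples and 1 in *Ptch1*-ablated replicate 3, where 3 counts correspond to 0.145 to 0.148 CPM (counts scaled to library size) over the 6 samples, a floor that covers counting error only. *Acsl6*, the synthetase of brain and erythroid cells, had at most 1 count in any sample. *Cpt1c*, the neuronal carnitine palmitoyltransferase, had 8, 6 and 3 counts in the control samples and 12, 12 and 8 in the *Ptch1*-ablated samples. *Acox2*, the branched-chain oxidase of liver, had 4, 8 and 12 counts in control and 2, 5 and 1 in *Ptch1*-ablated samples, and the groups overlapped. *Acaa1b*, a close paralog of *Acaa1a* with which it can share reads, had 9.31, 13.11 and 6.96 counts in control and 3.66, 1.22 and 3.74 counts in *Ptch1*-ablated samples.

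Comparing *Ptch1*-ablated with control epithelium, 7 of the 40 tested genes fell and 2 rose at an adjusted p of at most 0.05 in edgeR's quasi-likelihood test across all genes. Fold changes are given on the log2 scale ± their standard error. Those that fell were *Cpt1a*, *Hadh*, *Eci1*, *Etfb* and *Acaa2* of the mitochondrial route and *Acaa1a* and *Abcd3* of the peroxisome, and those that rose were *Acsl4* and *Acat3*. Among all 12999 tested genes 6.41% were lower and 7.61% higher by the same rule, against 17.5% and 5% of the 40, and in either direction 14.0% of all genes and 22.5% of the 40 were called. The changes were small, and with the further requirement of a 2-fold change, met by 0.892% of all genes downward, 2.34% upward and 3.23% in either direction, 0 of the 40 were lower and 1, *Acat3*, was higher. In bulk samples, a smaller number of cells of a type and less RNA in each cell cannot be told apart. The median log2 fold change was -0.14 for the 40 genes and -0.0099 for all tested genes, and 72.5% of the 40 had a value below 0 against 51.5% of all.

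The number called depended on having all samples in the fit. Without control replicates 1, 2 and 3 in turn, 0, 0 and 2 of the genes were called lower, and without *Ptch1*-ablated replicates 1, 2 and 3, 4, 3 and 2 were called lower. The share of all genes called lower in these fits ranged from 0.189% (without control replicate 2) to 4.34%. All 9 called genes kept their direction in each of the 6 fits, whereas *Acsl4* kept its call in 5, *Hadh* in 3, *Cpt1a* and *Abcd3* in 2, *Etfb*, *Eci1* and *Acat3* in 1, and *Acaa1a* and *Acaa2* in 0.

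*Cpt1a*, the outer-membrane carnitine palmitoyltransferase that controls entry of long-chain fatty acids into mitochondria, had the largest decrease among the called genes of the 45. It stood at 75.9, 79.4 and 68.3 TPM in control replicates 1, 2 and 3 and at 27.4, 39.5 and 55.0 TPM in *Ptch1*-ablated replicates 1, 2 and 3. All 3 *Ptch1*-ablated samples lay below all control samples, replicate 1 the farthest. The log2 fold change was -0.85 ± 0.20 (edgeR adjusted p = 0.0338), a change of -44.6%, and without *Ptch1*-ablated replicate 1 it was -0.66 (edgeR adjusted p = 0.0294).

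The other genes of the carnitine shuttle did not pass the test. *Cpt2*, the inner-membrane partner that regenerates acyl-CoA in the matrix, had 14.4, 16.6 and 17.4 TPM in control and 13.8, 13.7 and 15.4 TPM in *Ptch1*-ablated samples, with overlap between the groups (log2 fold change -0.14 ± 0.088, edgeR adjusted p = 0.318). *Slc25a20*, the carrier that exchanges acylcarnitine for carnitine across the inner membrane, had a log2 fold change of -0.14, and *Crat*, the acetyltransferase shared by mitochondria and peroxisomes, one of -0.19. *Cpt1b*, the muscle form of the outer-membrane enzyme, was low at 2.27 ± 0.467 TPM (SD, n = 3) in control and 2.93 ± 0.388 TPM (SD, n = 3) in *Ptch1*-ablated samples. Summed over the 6 shuttle genes, control samples held 131 to 145 TPM and *Ptch1*-ablated samples 78.3 to 117 TPM, a sum of which *Cpt1a* made up the larger part in the control group.

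Of the acyl-CoA synthetases, which commit fatty acids to oxidation or to lipid synthesis, *Acsl4* rose. *Acsl4*, the isoform that prefers arachidonic acid, had 10.9, 10.6 and 13.6 TPM in control and 22.7, 18.5 and 18.9 TPM in *Ptch1*-ablated samples, with no overlap. Its log2 fold change was 0.82 ± 0.14 (edgeR adjusted p = 0.0145), and the call was lost without control replicate 2 (edgeR adjusted p = 0.0731). *Acsl3*, an isoform of the endoplasmic reticulum and lipid droplets, had a log2 fold change of 0.34 (edgeR adjusted p = 0.0975). *Acsl1* (log2 fold change -0.039) and *Acsl5* (log2 fold change -0.099), which between them held most of the synthetase TPM, did not pass the test, and the sum over the 5 genes was 468 ± 17 TPM (SD, n = 3) in control and 458 ± 12.3 TPM (SD, n = 3) in *Ptch1*-ablated samples.

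**Figure D2:**
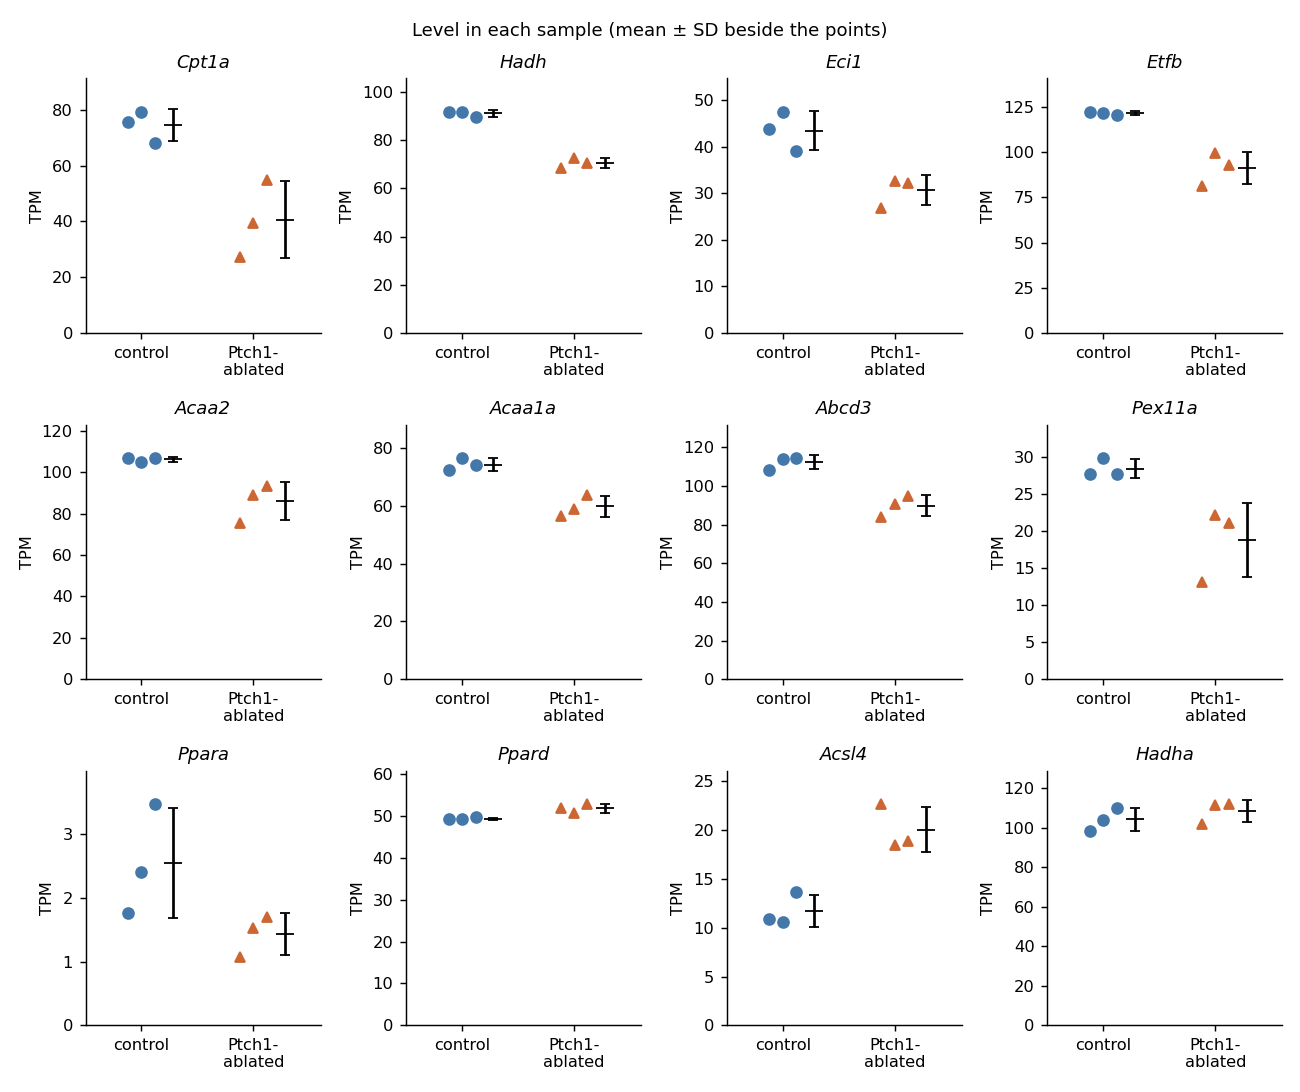
Level of 12 genes in each sample, in TPM on axes that start at 0, with control samples as circles, *Ptch1*-ablated samples as triangles and the mean ± SD of each group beside the points. The *Ptch1*-ablated samples of *Cpt1a* sit between 27.4 and 55.0 TPM, below all control samples, and those of *Acsl4* sit above all control samples. The groups of *Hadha* overlap in TPM but not in normalised counts.

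Within mitochondria, 4 of 17 oxidation genes fell, 0 rose and 13 did not pass the test, with a median log2 fold change of -0.15. The share lower was 23.5%, against 6.41% of all tested genes, and the share higher 0%, against 7.61%. None of the 5 dehydrogenases among the 17 that are specific for chain length (*Acadm*, *Acadvl*, *Acadl*, *Acads* and *Acadsb*) was called in edgeR, and DESeq2 called *Acadm* lower. *Acadm* came closest, with 169, 170 and 180 TPM in control and 138, 136 and 160 TPM in *Ptch1*-ablated samples (log2 fold change -0.22 ± 0.065, edgeR adjusted p = 0.0600). *Acadvl*, which acts on very long chains, had 51.4, 52.6 and 53.1 TPM in control and 40.7, 50.2 and 47.2 TPM in *Ptch1*-ablated samples (log2 fold change -0.15, edgeR adjusted p = 0.222). The groups of both genes did not overlap. The log2 fold change was 0.015 for *Acadl*, 0.073 for *Acads* and -0.080 for *Acadsb*, the dehydrogenases of long, short and short branched chains.

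The later steps of the matrix cycle gave unequal values. *Hadh*, the dehydrogenase of short and medium hydroxyacyl-CoA, had 91.7, 91.8 and 89.6 TPM in control and 68.6, 72.7 and 70.4 TPM in *Ptch1*-ablated samples, narrow groups with a gap between them (log2 fold change -0.33 ± 0.066, edgeR adjusted p = 0.0236). *Hadha* and *Hadhb*, the subunits of the membrane-bound trifunctional protein that performs the same steps on long chains, had log2 fold changes of 0.097 (edgeR adjusted p = 0.274) and 0.026 (edgeR adjusted p = 0.839). *Hadha* stood at 98.6, 104 and 110 TPM in control and 102, 111 and 112 TPM in *Ptch1*-ablated samples. *Acaa2*, the matrix thiolase that cleaves off acetyl-CoA, had 107, 105 and 107 TPM in control and 75.6, 89.1 and 93.2 TPM in *Ptch1*-ablated samples. Its log2 fold change of -0.27 ± 0.072 (edgeR adjusted p = 0.0479) lay at the edge of the threshold. *Echs1*, the enoyl-CoA hydratase, had a log2 fold change of -0.17, and *Acat1*, the acetoacetyl-CoA thiolase, one of -0.13, without passing the test.

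Unsaturated fatty acids need auxiliary enzymes, and *Eci1*, the mitochondrial enoyl-CoA isomerase that shifts their double bonds, fell. It had 43.9, 47.6 and 39.0 TPM in control and 26.9, 32.7 and 32.3 TPM in *Ptch1*-ablated samples (log2 fold change -0.47 ± 0.11, edgeR adjusted p = 0.0337). *Decr1*, the mitochondrial dienoyl-CoA reductase that acts beside it, went from 14.7 ± 0.598 TPM (SD, n = 3) in control to 11.1 ± 1.47 TPM (SD, n = 3) in *Ptch1*-ablated samples and did not pass the test (log2 fold change -0.36, edgeR adjusted p = 0.0671).

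Electrons from the dehydrogenases pass to the electron transfer flavoprotein, a dimer of the products of *Etfa* and *Etfb*, and on to the respiratory chain through *Etfdh*. *Etfb* fell from 122, 122 and 121 TPM in control to 81.5, 99.4 and 92.9 TPM in *Ptch1*-ablated samples (log2 fold change -0.38 ± 0.081, edgeR adjusted p = 0.0267). *Etfa* had a log2 fold change of -0.078 (edgeR adjusted p = 0.410) and *Etfdh* one of -0.0094 (edgeR adjusted p = 0.949). *Gcdh*, a dehydrogenase of lysine breakdown that uses the same acceptor, had one of -0.16.

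Among the peroxisomal oxidation genes, 1 of the 6 tested fell (16.7%, against 6.41% of all tested genes) and 0 rose (against 7.61%), with a median log2 fold change of -0.12. *Acaa1a*, the peroxisomal thiolase, had 72.3, 76.6 and 74.0 TPM in control and 56.6, 59.0 and 63.8 TPM in *Ptch1*-ablated samples (log2 fold change -0.28 ± 0.062, edgeR adjusted p = 0.0301). *Hsd17b4*, the bifunctional protein that acts on branched and very long chains, had 49.0, 47.6 and 47.3 TPM in control and 39.2, 44.1 and 42.9 TPM in *Ptch1*-ablated samples, without overlap and without passing the test (log2 fold change -0.15, edgeR adjusted p = 0.169). *Ehhadh*, the other bifunctional enzyme, had 10.0, 9.41 and 8.79 TPM in control and 7.07, 9.21 and 9.70 TPM in *Ptch1*-ablated samples, with overlap (log2 fold change -0.065, edgeR adjusted p = 0.749). *Acox3*, an oxidase of branched chains, had 21.30, 26.92 and 23.76 TPM in control and 19.97, 19.51 and 25.79 TPM in *Ptch1*-ablated samples, also with overlap (log2 fold change -0.095, edgeR adjusted p = 0.582). *Decr2*, the peroxisomal dienoyl-CoA reductase, had a log2 fold change of -0.26 (edgeR adjusted p = 0.0726) and *Eci2*, the peroxisomal isomerase, one of 0.091.

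On the peroxisomal membrane, *Abcd3*, also called PMP70, which carries long and branched acyl-CoA into the organelle, fell from 109, 114 and 115 TPM in control to 84.1, 90.4 and 94.9 TPM in *Ptch1*-ablated samples (log2 fold change -0.29 ± 0.054, edgeR adjusted p = 0.0199). *Pex11a*, a membrane protein of peroxisome division, had 27.8, 30.0 and 27.7 TPM in control and 13.1, 22.2 and 21.1 TPM in *Ptch1*-ablated samples. All *Ptch1*-ablated samples lay below the control samples, but *Pex11a* did not pass the test (log2 fold change -0.57 ± 0.17, edgeR adjusted p = 0.0605), and it did so without *Ptch1*-ablated replicate 1, at a log2 fold change of -0.38 (edgeR adjusted p = 0.0402). *Pex5*, the import receptor of peroxisomal enzymes, had 19.3, 20.5 and 21.0 TPM in control and 21.0, 19.7 and 22.4 TPM in *Ptch1*-ablated samples, and the groups overlapped. *Abcd2*, a transporter of very long chains, was scarce, at 0.230 ± 0.0529 TPM (SD, n = 3) in control and 0.167 ± 0.0551 TPM (SD, n = 3) in *Ptch1*-ablated samples.

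**Figure D3:**
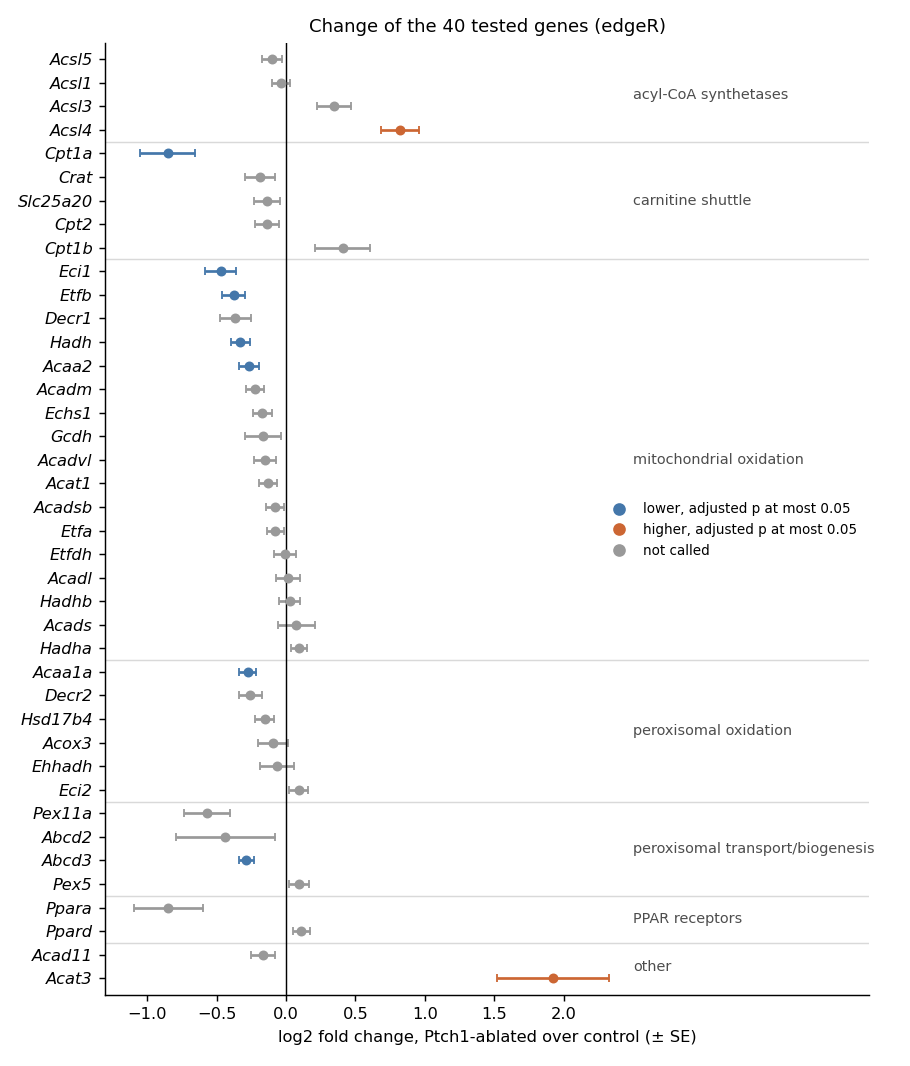
Log2 fold change of *Ptch1*-ablated over control samples with its standard error for the 40 tested genes, grouped by role and coloured by whether the gene was called lower, higher or not at all at an adjusted p of at most 0.05. The 7 genes called lower lie between -0.85 and -0.27, and *Acat3* lies farthest to the right at 1.92.

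Mitochondrial and peroxisomal oxidation were then set side by side. The 17 mitochondrial oxidation genes summed to 1155, 1168 and 1184 TPM in control and to 969, 1021 and 1067 TPM in *Ptch1*-ablated samples, a difference of -12.8% between the means. The 8 peroxisomal oxidation genes summed to 232, 240 and 237 TPM in control and to 193, 212 and 225 TPM in *Ptch1*-ablated samples, a difference of -11.0%. Neither pair of groups overlapped, and replicate 1 was the lowest of the *Ptch1*-ablated samples for both sums. The peroxisomal sum was 20.2% of the mitochondrial sum in control samples and 20.6% in *Ptch1*-ablated samples, with values from 19.96% to 21.11% over the 6 samples and overlapping groups. The mean log2 ratio differed by 0.029 between groups, with SDs of 0.020 in control and 0.042 in *Ptch1*-ablated samples. This difference turned to -0.047 when *Eci2*, *Acaa1b* and *Gcdh* were left out. The compartment of *Eci2* is shared, *Acaa1b* can share reads with *Acaa1a*, and *Gcdh* belongs to lysine breakdown. A sum over genes chosen by name was given no test.

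**Figure D4:**
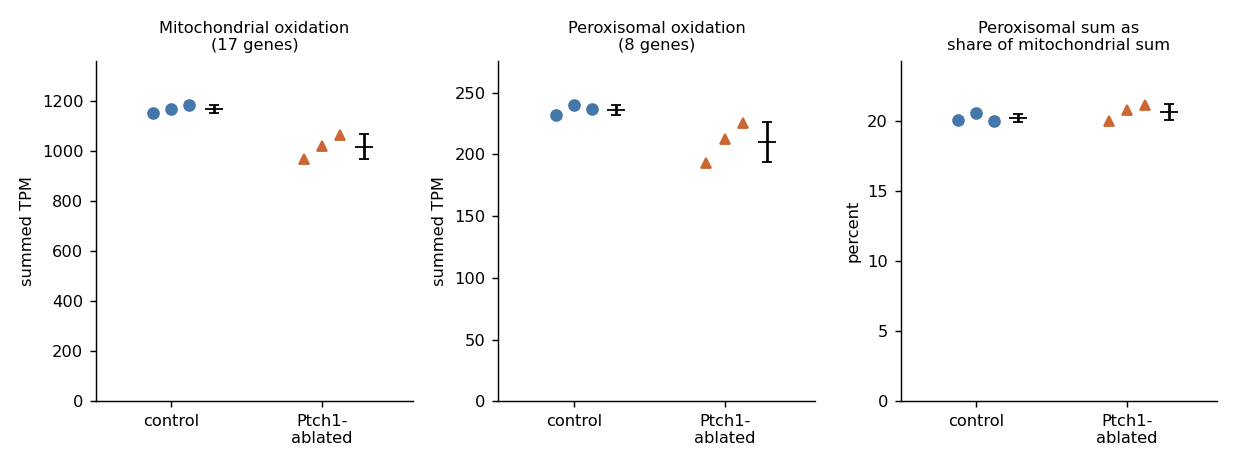
Summed TPM of the 17 mitochondrial and 8 peroxisomal oxidation genes in each sample, and the peroxisomal sum as a percentage of the mitochondrial sum, on axes that start at 0, with the mean ± SD beside the points. Both sums are lower in all *Ptch1*-ablated samples, and their ratio lies between 19.96% and 21.11% in all 6 samples.

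Pairs of genes were compared as log2 ratios of TPM within each sample. The 9 pairs were enzymes of the same step in either compartment, subunits or partners of one step, or genes of one organelle. They were picked after the values were known. The ratio of *Eci2* to *Eci1*, the isomerases listed as peroxisomal and mitochondrial, was 0.36, 0.20 and 0.58 in control and 0.99, 0.91 and 0.93 in *Ptch1*-ablated samples, without overlap. The compartment of *Eci2* is shared, so this ratio is not strictly one between compartments. The ratio of the thiolases *Acaa1a* and *Acaa2* was -0.52 ± 0.056 (SD, n = 3) in control and -0.52 ± 0.091 (SD, n = 3) in *Ptch1*-ablated samples, with overlap. Those of *Decr2* to *Decr1*, *Ehhadh* to *Hadha* and *Acox3* to *Acadm* overlapped between groups, with differences of 0.11, -0.19 and 0.12.

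Within single steps, the ratio of *Etfb* to *Etfa* was 0.21 in each control sample and -0.18, -0.0033 and -0.097 in the *Ptch1*-ablated samples. That of *Hadhb* to *Hadha* overlapped between groups, with a difference of -0.072. That of *Cpt1a* to *Cpt2* differed by -0.76, without overlap. *Abcd3* and *Pex5* are both peroxisomal but do not share a step, and their ratio differed by -0.38, also without overlap. The 4 pairs that did not overlap had p = 0.1 in a two-sided exact permutation test, and an adjusted p of 0.225 over the 9 pairs. That p is the smallest that 3 samples against 3 allow. The test could therefore not pass the threshold used for single genes, and its p only restates the lack of overlap. The other 5 pairs overlapped, and their p lay between 0.3 and 1 in the same exact test.

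**Figure D5:**
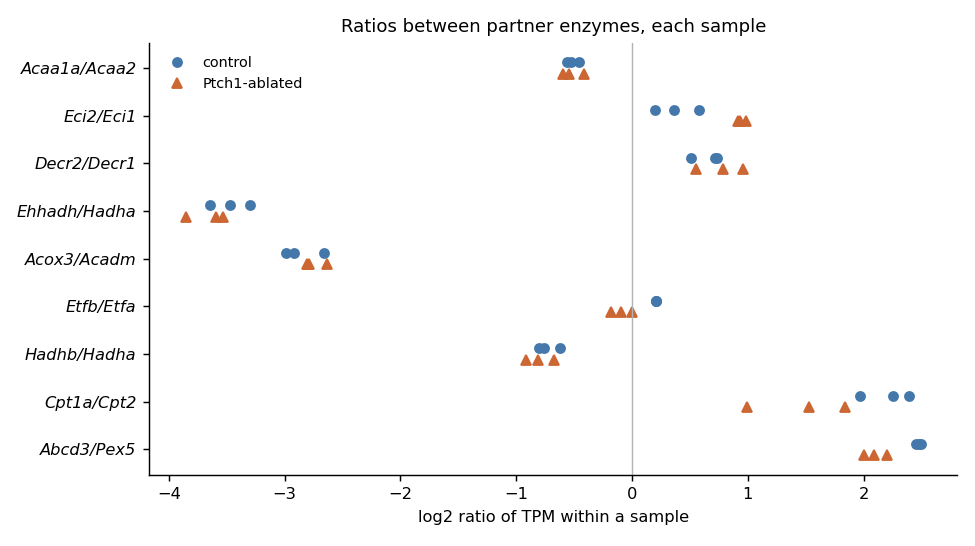
Log2 ratio of TPM between paired genes within each sample for 9 pairs, with control samples as circles and *Ptch1*-ablated samples as triangles. The groups are apart for *Eci2/Eci1*, *Etfb/Etfa*, *Cpt1a/Cpt2* and *Abcd3/Pex5*, and overlap for the other 5 pairs. Of all single genes tested, 39.9% had groups apart in either direction in normalised counts.

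Of the PPAR receptors, *Ppard*, the form found in most epithelia, was the one with appreciable expression. It had 49.1, 49.2 and 49.6 TPM in control and 51.9, 50.7 and 52.8 TPM in *Ptch1*-ablated samples, and did not pass the test (log2 fold change 0.11 ± 0.062, edgeR adjusted p = 0.256). *Ppara*, the receptor best known for inducing fatty acid oxidation in liver, was low, with 1.77, 2.41 and 3.47 TPM in control and 1.07, 1.53 and 1.70 TPM in *Ptch1*-ablated samples. Its groups did not overlap, with a log2 fold change of -0.85 ± 0.25 (edgeR adjusted p = 0.0596), and it passed the threshold in DESeq2 (adjusted p = 0.0206).

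*Acat3* and *Acad11* were counted in neither the mitochondrial nor the peroxisomal list, which is a choice of grouping and not a measured location. *Acat3* encodes a cytosolic thiolase close in sequence to *Acat2*, with which it can share reads. It had 4.06, 3.27 and 4.54 expected counts in control and 13.88, 11.49 and 19.7 in *Ptch1*-ablated samples (log2 fold change 1.92 ± 0.40, edgeR adjusted p = 0.0256), so its rise rests on few reads, and the call was lost in DESeq2 (adjusted p = 0.053). *Acat2* itself had 76.2 ± 4.11 TPM (SD, n = 3) in control and 105 ± 28.4 TPM (SD, n = 3) in *Ptch1*-ablated samples, with overlap. *Acad11*, a dehydrogenase of long chains, had 18.26, 18.53 and 18.96 TPM in control and 13.94, 17.45 and 17.04 TPM in *Ptch1*-ablated samples and did not pass the test (log2 fold change -0.17, edgeR adjusted p = 0.210).

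Counted without regard to a test, 17 of the 40 genes had every *Ptch1*-ablated sample below every control sample in normalised counts, and 4 had every one above. Those 4 include *Hadha*, whose groups overlap in TPM. The share lower was 42.5% of the 40, against 20.3% of all tested genes. The 4 that were higher compare with 19.7% of all tested genes, of which 39.9% were apart in either direction. Of the 7 genes called lower, 5 had their lowest normalised count in *Ptch1*-ablated replicate 1, 1 in replicate 2 and 1 in replicate 3. Without replicate 1, *Hadh*, *Abcd3*, *Cpt1a* and *Pex11a* were called lower and *Acsl4* higher, where 3.97% of all genes were called lower.

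Further genes of the pathway were taken from lists drawn up by function. Of 29 tested genes of mitochondrial acyl-CoA and related organic acid metabolism, 7 fell (24.1%, against 6.41% of all tested genes) and 0 rose, with a median log2 fold change of -0.20. Those with the smallest p belong in part to amino acid breakdown. *Ivd*, the isovaleryl-CoA dehydrogenase of leucine breakdown, had 28.4, 27.2 and 28.8 TPM in control and 17.4, 18.6 and 18.2 TPM in *Ptch1*-ablated samples (log2 fold change -0.60 ± 0.072, edgeR adjusted p = 0.00769), and kept its call in each of the 6 fits that left out 1 sample. *Slc25a29*, a mitochondrial carrier of basic amino acids, had a log2 fold change of -1.12 (edgeR adjusted p = 0.0168). *Slc22a5*, the plasma membrane carnitine transporter, fell from 31.9, 35.3 and 38.0 TPM to 23.9, 26.6 and 29.0 TPM (log2 fold change -0.34, edgeR adjusted p = 0.0281). *Hibadh*, of valine breakdown, and *Acss1*, the mitochondrial acetyl-CoA synthetase, had log2 fold changes of -0.29 and -0.73 and also fell. The remaining called genes were *Acad9*, an acyl-CoA dehydrogenase that also assembles respiratory complex I (log2 fold change -0.32, edgeR adjusted p = 0.0364), and *Oxct1*, of ketone body use (log2 fold change -0.27, edgeR adjusted p = 0.0446). In fits without 1 sample, *Slc25a29* kept its call in 5, *Slc22a5* and *Acss1* in 1 and *Hibadh* in 0 of 6.

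Of 55 further peroxisomal genes tested, 4 fell and 1 rose, with a median log2 fold change of -0.14. *Phyh*, the hydroxylase that starts the breakdown of phytanic acid, had 50.6, 54.8 and 59.2 TPM in control and 37.2, 41.6 and 38.2 TPM in *Ptch1*-ablated samples (log2 fold change -0.45 ± 0.081, edgeR adjusted p = 0.0179). *Crot*, which exports shortened chains as carnitine esters, and *Pxmp4*, a membrane protein, had log2 fold changes of -0.24 and -0.31, with adjusted p of 0.0480 and 0.0461 in edgeR. *Agxt*, an aminotransferase of glyoxylate metabolism, rose from 0.597 ± 0.248 TPM (SD, n = 3) to 1.58 ± 0.310 TPM (SD, n = 3). In fits without 1 sample, *Phyh* kept its call in 4 and *Crot*, *Pxmp4* and *Agxt* in 0 of 6. The share lower, 7.27% of the 55, lay near the 6.41% of all genes.

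Of 35 tested genes that supply fatty acids or are regulated with or by PPAR, 2 fell and 1 rose, with a median log2 fold change of -0.032. The shares, 5.71% lower and 2.86% higher, were not above the 6.41% and 7.61% of all tested genes. *Fabp5*, the fatty acid carrier of stratified epithelia, had 252, 220 and 205 TPM in control and 2196, 861 and 527 TPM in *Ptch1*-ablated samples, highest in replicate 1 (log2 fold change 2.47 ± 0.51, edgeR adjusted p = 0.0249). Without that replicate its log2 fold change was 1.64 (edgeR adjusted p = 0.00817). *Cyp4a12a*, a fatty acid hydroxylase whose paralogs can share its reads, had 217, 173 and 131 TPM in control and 19.95, 64.18 and 58.60 TPM in *Ptch1*-ablated samples. *Ppargc1a*, a coactivator of PPAR and of mitochondrial genes, was low, at 0.510, 0.610 and 0.560 TPM in control and 0.230, 0.290 and 0.310 TPM in *Ptch1*-ablated samples (log2 fold change -0.97 ± 0.23, edgeR adjusted p = 0.0346). In fits without 1 sample, *Cyp4a12a* kept its call in 4, *Fabp5* in 3 and *Ppargc1a* in 0 of 6.

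Promoter windows of 300 bases, from 250 before to 50 after a transcript start, were taken from RefSeq on GRCm38.p6 for 37 of the 45 genes (46 windows). They are shown for *Cpt1a*, which had the largest decrease among the called genes of the 45, and for 1 called gene each of the matrix cycle (*Hadh*), the electron acceptor (*Etfb*) and the peroxisome (*Acaa1a*). Each is written 5′ to 3′ along the gene's strand. Capitals mark the nuclear receptor half-site AGGTCA and the GC box GGGCGG, on either strand, so that TGACCT and CCGCCC are their reverse complements.
Cpt1a (chr19:3323051-3323350, plus strand): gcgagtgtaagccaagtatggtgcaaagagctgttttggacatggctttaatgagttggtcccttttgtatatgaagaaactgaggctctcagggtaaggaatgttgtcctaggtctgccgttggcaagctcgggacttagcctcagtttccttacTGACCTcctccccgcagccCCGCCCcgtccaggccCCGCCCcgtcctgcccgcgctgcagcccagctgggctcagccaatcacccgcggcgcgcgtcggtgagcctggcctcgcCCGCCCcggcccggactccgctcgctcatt
Hadh (chr3:131272052-131272351, minus strand): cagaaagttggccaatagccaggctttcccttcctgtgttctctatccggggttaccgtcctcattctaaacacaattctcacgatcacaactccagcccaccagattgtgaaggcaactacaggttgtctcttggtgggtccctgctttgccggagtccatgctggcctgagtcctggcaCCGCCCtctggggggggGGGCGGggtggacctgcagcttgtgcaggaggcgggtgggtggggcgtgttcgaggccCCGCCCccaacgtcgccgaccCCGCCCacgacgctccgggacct
Etfb (chr7:43443822-43444121, plus strand): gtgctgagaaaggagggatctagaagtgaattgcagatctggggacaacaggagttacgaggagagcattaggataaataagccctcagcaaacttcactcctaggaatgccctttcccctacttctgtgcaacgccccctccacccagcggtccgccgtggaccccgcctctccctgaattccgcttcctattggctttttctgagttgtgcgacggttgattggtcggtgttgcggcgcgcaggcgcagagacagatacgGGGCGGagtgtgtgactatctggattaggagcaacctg
Acaa1a (chr9:119341044-119341343, plus strand): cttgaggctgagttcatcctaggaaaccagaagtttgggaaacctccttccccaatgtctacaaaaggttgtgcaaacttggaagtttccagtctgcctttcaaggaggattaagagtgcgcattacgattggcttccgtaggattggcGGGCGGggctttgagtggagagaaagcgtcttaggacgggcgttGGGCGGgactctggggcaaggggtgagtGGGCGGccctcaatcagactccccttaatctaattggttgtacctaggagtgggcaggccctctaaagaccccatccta

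Of 6 motifs searched on both strands, the direct repeat of AGGNCA with 1 base between its copies, which PPAR binds with its partner RXR, was in 0 of the 46 windows and in 0.381% of all 32851 windows. The half-site AGGTCA, which this repeat can contain, was in 17.4% of the 46 and 16.3% of all windows, and the *Cpt1a* window held 1. The GC box GGGCGG was in 73.9% of the 46 and 35.7% of all windows, with 3 in the *Cpt1a* window, 4 in that of *Hadh*, 1 in that of *Etfb* and 3 in that of *Acaa1a*. The element TCAAGGTCA, which contains the half-site, was in 1 window, the NRF1 site (GCGCA followed directly by TGCGC) in 2 and the E-box CACGTG in 0, where 0.423%, 0.971% and 7.15% of all windows held them. A match is a run of letters and not a measured binding site.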

How the data were processed

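RNA-seq of 6 corneal epithelial samples was analysed from the deposited gene table. The authors aligned reads with Bowtie2 2.2.5 to the mouse genome (mm9 per the labels) and quantified genes with RSEM 1.2.12, and they deposited expected counts, not scaled for depth, and TPM values, which correct for transcript length and sequencing depth. The annotation is not given in the sources used here. Deposited FPKM columns and group averages were not used, and 0 columns of other samples were present.

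Expected counts were rounded (39.4% of values above 0 were not whole, since RSEM divides reads shared by similar genes). Of 17784 genes, 12999 passed filterByExpr and were fitted together in edgeR 4.0.16 (R 4.3.3) with TMM factors and the quasi-likelihood test. Adjusted p values are Benjamini-Hochberg values over all tested genes. The study's methods name no test for differential expression, and their thresholds (adjusted p of at most 0.05, fold change of at least 2) were applied as a second rule. Standard errors were derived from the fold change and the F statistic. Normalised counts are TMM-scaled counts. Replicates of a group differed by more than counting error, as chi-square over its degrees of freedom was 10.1 to 37.8 between pairs. The procedure was tested on simulated data, where large changes were recovered far more often than small ones and the share of false calls exceeded the nominal level. DESeq2 1.42.0 and limma 3.58.1 served for alternatives.

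The genes, lists and pairs were chosen with earlier results of these data known. Values in every sample were given for called genes, for 16 genes fixed by name, and for at most 5 called genes of each further list. A called gene of the further peroxisomal list is not reported here. *Acat2*, *Acad9*, *Oxct1*, *Fabp4* and marker genes were named beside these after their values were seen.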

Additional observations from a re-analysis of the deposited data

How the results depend on the processing

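The 7 genes called lower stayed within 1.5 times under DESeq2 (10), limma-voom, other size factors and other count filters. They became 4 with limma on log2(TPM + 1) without a filter, 4 without both control replicate 3 and *Ptch1*-ablated replicate 1 (an alternative chosen after seeing the data), 0 with a fold change of at least 2 and 13 with an unadjusted p under 0.05. Among all genes, 7.73% were called lower with DESeq2, 1.88% with limma without a filter and 3.68% without both samples, against 6.41% in the main fit. The share of all genes at an unadjusted p under 0.05 is not given here. Leaving out 1 sample gave 0 to 4. The 2 genes called higher became 1 with DESeq2, with at least 10 counts in every sample, with limma on log2(TPM + 1) or log2(TPM + 0.1) with the filter of 1 TPM, without both of those samples and with a fold change of at least 2, and 0 to 2 when 1 sample was left out. Among all genes, 989 were called higher in the main fit, 1387 with DESeq2 and 948 with at least 10 counts in every sample. With limma on log2(TPM + 1) and log2(TPM + 0.1) with the filter, 697 and 684 were called higher. The number was 304 with a fold change of at least 2, 697 without both samples and 68 to 753 when 1 sample was left out. The cause of these shifts was not tested. The last fits held fewer samples, and *Acat3* did not pass the filters of 1 TPM and of 10 counts.

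The median log2 fold change of the mitochondrial genes moved from -0.15 to -0.19 with limma on log2(TPM + 1), where the median of all genes was -0.05, and lay between -0.16 and -0.13 when 1 sample was left out. That of the peroxisomal genes moved from -0.12 to -0.20 with DESeq2, which kept the genes of low counts, and lay between -0.17 and -0.097. The difference in the log2 ratio of the sums, 0.029, was -0.047 without *Eci2*, *Acaa1b* and *Gcdh* and 0.012 to 0.052 when 1 sample was left out. *Ehhadh* turned from -0.065 to 0.000223 without control replicate 1 and to 0.033 without *Ptch1*-ablated replicate 1, and no other named gene changed direction in these fits.

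With the replicate number as a block, 7 genes were called lower and 3 higher, where 6.54% of all genes were called lower and 14.6% in either direction. *Ppara* (adjusted p = 0.0245) and *Acsl3* gained a call and *Acaa2* (adjusted p = 0.0699) lost it, all in edgeR. The deviations of same-numbered samples correlated at 0.11, -0.014 and 0.019. Control replicates 1 and 3 were each most like the *Ptch1*-ablated sample of the same number, and control replicate 2 was most like *Ptch1*-ablated replicate 3. With correlations this low, the numbers were not taken as pairs in the main fit. At this depth *Pparg*, *Acsl6* and *Acox2* had too few counts to pass the filter, and the effect of greater depth was not tested.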
